A study of Mus musculus with 8 samples.

Results

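The crypt base columnar stem cell genes comprised 8 genes, Lgr5, Olfm4, Ascl2, Smoc2, Slc12a2, Tnfrsf19, Rgmb and Prom1, of 14277 genes with a value in these RNA sequencing data. They were taken as a list of names, and each was measured from the rows that the deposited tables assign to it, checked against the exon coordinates of the gene. The samples were mouse intestinal organoids, epithelial cultures grown from isolated crypts in Matrigel with a commercial organoid medium. There were 4 WT samples and 4 MG53-TG samples, the latter from mice that carry a transgene for global overexpression of MG53, a tripartite motif protein known for membrane repair in muscle and encoded by Trim72. The paper gives WT littermates as the controls of MG53-TG mice, and in its text also names organoids of mice with an Lgr5 reporter allele. The labels give genotype only, no age and no allele at Lgr5, so which mice each sample came from was not known here. Nothing in the labels says that the samples of a group came from separate animals, so p-values describe the spread between these samples, which may be technical.

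Crypt base columnar cells sit between the Paneth cells at the bottom of the small intestinal crypt, divide continually and give rise to all lineages of the epithelium. Wnt signals, amplified by R-spondin binding to LGR receptors, keep them undifferentiated, and Notch signals from neighbouring Paneth cells keep them from entering the secretory lineages. The genes considered here mark these cells, although Slc12a2, Rgmb and Prom1 extend into the progenitors above them and Smoc2 and Tnfrsf19 are also used by cells outside the epithelium. In whole organoids, fewer stem cells and less RNA per stem cell cannot be told apart.

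Expression was given as FPKM, a fragment count scaled to the length of the transcript and to the mapped fragments of the sample, and a gene was taken as the sum over its transcription start events. The depth of each sample is unknown. Summed over all start events, the samples held 269837 to 273797 FPKM in the WT and 269094 to 284330 FPKM in the MG53-TG. The transgene check by Trim72 gave 16.4, 27.4, 31.9 and 36.5 FPKM in the 4 MG53-TG samples, while the WT samples had no entry for it. Of the epithelial markers, the cytoskeletal proteins Krt18 and Vil1 lay at the 2 ends, with Krt18 averaging 474 ± 52.7 FPKM over WT and 227 ± 68.1 over MG53-TG samples (SD, n = 4). Vil1 averaged 102 ± 3.05 and 213 ± 32.4 FPKM (SD, n = 4), so both groups held epithelial transcripts at high levels.

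Of the stem cell genes 7 fell in MG53-TG organoids and none rose. These 7 of 8 were lower by limma with Benjamini-Hochberg adjustment over all genes, where 28.7% of the 11043 genes tested were lower, 15.6% were higher and 44.3% were called in either direction. All 8 genes passed the filter of a mean of 0.5 FPKM, and all 8 had a negative log2 fold change. Their median was -1.57, beside -0.17 over all genes tested. The groups did not overlap for 6 genes, Tnfrsf19 with 2 MG53-TG values among them, where 28.7% of all genes lay wholly lower in the MG53-TG. Smoc2, which did not pass the threshold, and Prom1 were the exceptions. The count was 4 when WT sample 1 or MG53-TG sample 3 was left out. Rescaling the samples by their median ratio moved the median of all genes up by 0.16, and 6 of the 8 genes then remained lower by the test, with a median of -1.39. With that rescaling 50.2% of all called genes were higher, against 35.3% without it.

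**Figure D1:**
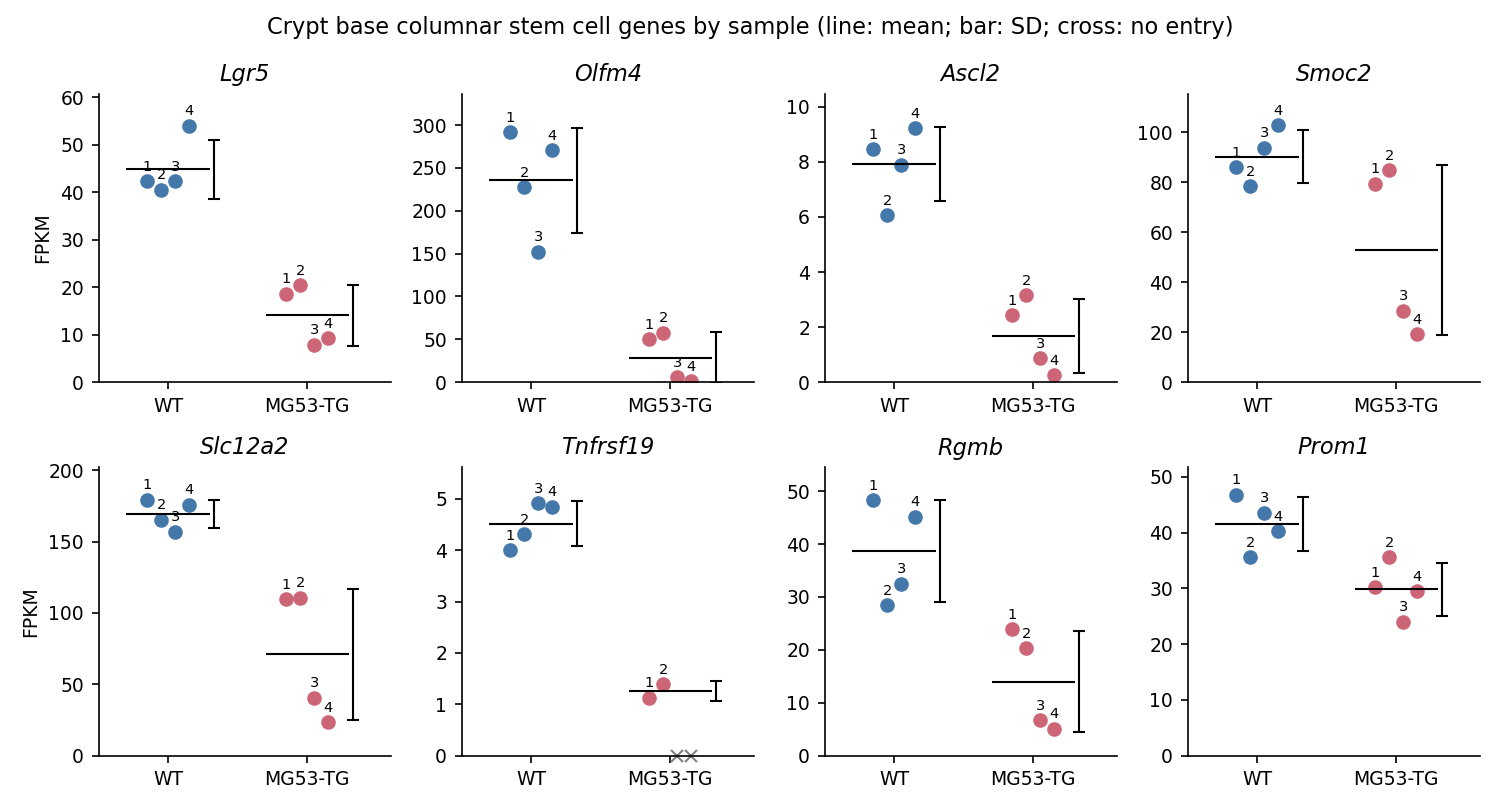
FPKM of each stem cell gene in each sample, with WT in blue and MG53-TG in red and the sample number beside each point. Lines are group means, bars are SD and crosses mark samples with no entry. Lgr5 lay at 40.5 to 54.0 FPKM in the WT against 7.90 to 20.5 for MG53-TG, whereas the 2 groups met for Smoc2 and Prom1.

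Lgr5 encodes the R-spondin receptor that defines these cells and lies on chromosome 10 from 115450311 to 115587780 on the minus strand of GRCm38. Its level was 42.3, 40.5, 42.3 and 54.0 FPKM in WT samples 1 to 4, against 18.6, 20.5, 7.90 and 9.25 FPKM for MG53-TG samples 1 to 4. Every MG53-TG sample lay below every WT sample. The mean was 3.19-fold lower, and the log2 fold change of FPKM + 1 was -1.70 ± 0.29 (SE), with a limma adjusted p of 0.00190. An exact permutation test over samples, two-sided, gave 0.0286, the smallest p that 4 samples against 4 allow.

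The Lgr5 signal came from 2 places. The deposited rows gave a start at the annotated beginning of the gene, chr10:115587282-115587780, and another at chr10:115505486-115505784, 81996 bases further down the gene. The latter lay in intron 2 of the 18-exon transcript, matched no exon boundary and overlapped no other annotated gene. At the annotated start Lgr5 was at 8.87, 6.34, 5.73 and 21.7 FPKM in the WT samples and 11.4, 14.6, 2.47 and 3.67 FPKM in the MG53-TG samples. The groups overlapped there, and an exact permutation test gave p = 0.543.

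At the start in the intron the values were 33.5, 34.2, 36.6 and 32.3 FPKM in the WT and 7.22, 5.83, 5.43 and 4.26 FPKM in the MG53-TG. The groups stood well apart, with an exact permutation p of 0.0286, or 0.0619 after adjustment over the 13 start events compared. The share of Lgr5 at the intronic start was 77.4 ± 12.2% (SD, n = 4) in the WT and 45.5 ± 17.1% (SD, n = 4) in the MG53-TG. That difference in share had an exact permutation p of 0.0571 and an adjusted p of 0.105 over 11 shares, so it did not pass. The high total of WT sample 4 came from its annotated start. How the authors' software divided reads between these starts was not tested.

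**Figure D2:**
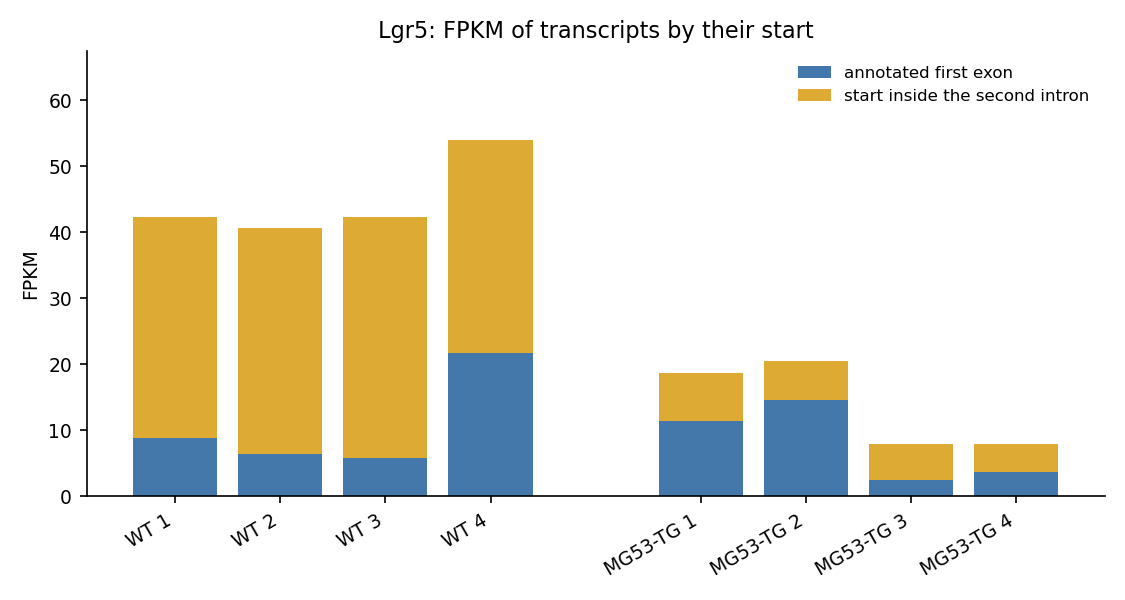
FPKM of Lgr5 in each sample, stacked by the start of the transcripts. The annotated start is blue and the start inside the intron is yellow. The intronic part spanned 32.3 to 36.6 FPKM among WT samples and 4.26 to 7.22 among MG53-TG samples, whereas the annotated part overlapped between groups. Starts listed in MG53-TG sample 4 alone are not drawn.

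Tnfrsf19, also known as Troy, encodes a receptor of the tumour necrosis factor family and a Wnt target that marks crypt base cells. It lies on chromosome 14 from 60963875 to 61046490. It was the lowest of the 8 genes in both groups, at 4.00, 4.32, 4.91 and 4.85 FPKM in the WT samples and 1.12 and 1.39 FPKM in MG53-TG samples 1 and 2. MG53-TG samples 3 and 4 had no entry for Tnfrsf19, and the fit dropped them. With the 2 remaining samples the log2 fold change was -1.29 ± 0.15 (SE) with a limma adjusted p of 0.000815, and the exact permutation p was 0.0667. With the missing entries counted as 0 it was -1.87, adjusted p = 0.00158 by limma, and the exact permutation p was 0.0286.

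Rgmb encodes a membrane-anchored co-receptor for bone morphogenetic proteins and lies on chromosome 17 from 15803188 to 15831039. It was at 48.3, 28.4, 32.5 and 45.2 FPKM in the WT samples and at 23.9, 20.3, 6.65 and 5.12 FPKM in the MG53-TG samples. The groups did not overlap, with a mean 2.76-fold lower in the MG53-TG. The log2 fold change was -1.62 ± 0.45 (SE, limma adjusted p = 0.0192, exact permutation p = 0.0286). The call was lost without WT sample 1, without WT sample 4 or without MG53-TG sample 3, with adjusted p between 0.0507 and 0.0526 and log2 fold changes of -1.51, -1.54 and -1.39. It was also lost when only the highest single event of the gene was used (-1.53, adjusted p = 0.187). The minor end event of Rgmb averaged 1.27 FPKM over WT samples, against 0.307 over the 3 MG53-TG samples that listed it. It reached the filter of 0.5 FPKM through its WT values alone. Its log2 fold change of -0.87 (limma adjusted p = 0.0166) is therefore no support for a fall.

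Rgmb had 2 annotated starts 4453 bases apart, and single samples swung between them. The downstream start held 66.0, 83.4, 4.96 and 71.8% of Rgmb in WT samples 1 to 4 and 4.19, 59.6, 88.7 and 90.9% in MG53-TG samples 1 to 4. The spread within each group covered nearly the whole scale, so the groups could not be told apart by it (exact permutation p = 0.829). The total over both starts ranged over 1.70-fold among the WT samples and 4.66-fold among the MG53-TG samples.

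Ascl2 is the basic helix-loop-helix factor that sustains the stem cell programme together with Wnt signals. It lies on chromosome 7 from 142966829 to 142969264. It was at 8.46, 6.06, 7.90 and 9.22 FPKM in the WT samples and at 2.43, 3.15, 0.880 and 0.258 FPKM in the MG53-TG samples. Every MG53-TG sample lay below every WT sample, and the mean was 4.71-fold lower. The log2 fold change was -1.87 ± 0.35 (SE, limma adjusted p = 0.00320, exact permutation p = 0.0286).

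Olfm4, a secreted glycoprotein that responds to Notch and labels crypt base cells strongly, showed the steepest fall of the 8 genes. It lies on chromosome 14 from 79984081 to 80023139. It was at 292, 227, 153 and 271 FPKM in the WT samples and at 50.1, 57.7, 6.07 and 0.948 FPKM in the MG53-TG samples. The highest MG53-TG sample lay below the lowest WT sample, and the mean was 8.20-fold lower. MG53-TG samples themselves ranged over 60.8-fold, against 1.91-fold among the WT samples. The log2 fold change was -4.01 ± 1.00 (SE, limma adjusted p = 0.0116, exact permutation p = 0.0286), and it ran from -4.69 to -3.05 as single samples were left out.

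Smoc2 encodes a secreted calcium-binding matrix protein and lies on chromosome 17 from 14279506 to 14404790. It was at 85.9, 78.3, 93.9 and 103 FPKM in the WT samples and at 79.4, 84.8, 28.7 and 19.1 FPKM in the MG53-TG samples. MG53-TG samples 1 and 2 lay within the WT range and samples 3 and 4 well below it. The log2 fold change was -1.01 ± 0.44 (SE) and did not pass, with a limma adjusted p of 0.0930 and an exact permutation p of 0.114. It passed without MG53-TG sample 1 (-1.29, adjusted p = 0.0438), without MG53-TG sample 2 (-1.32, adjusted p = 0.0327) and with samples weighted by their fit (-1.03, adjusted p = 0.0483). It was -0.81 without MG53-TG sample 3 and -0.62 without MG53-TG sample 4 (adjusted p = 0.212 and 0.194). The end events listed for Smoc2 were minor, and a value from them alone went the other way without passing (0.30, adjusted p = 0.345).

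Slc12a2 encodes the sodium, potassium and chloride cotransporter NKCC1, which loads crypt cells with chloride for secretion. It lies on chromosome 18 from 57878678 to 57946821. It was at 179, 165, 157 and 176 FPKM in the WT samples, the tightest of the 8 genes with a range of 1.14-fold. In the MG53-TG samples it was at 110, 111, 40.5 and 23.3 FPKM, all below the WT samples. The mean was 2.38-fold lower and the log2 fold change was -1.52 ± 0.46 (SE, limma adjusted p = 0.0259, exact permutation p = 0.0286). The call was lost when any single WT sample or MG53-TG sample 3 was left out, with adjusted p between 0.0511 and 0.0692 and log2 fold changes between -1.55 and -1.34.

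Prom1 encodes prominin-1, also known as CD133, a pentaspan protein of membrane protrusions, and lies on chromosome 5 from 43993620 to 44102032. It was at 46.8, 35.6, 43.6 and 40.2 FPKM in the WT samples and at 30.2, 35.6, 24.1 and 29.5 FPKM in the MG53-TG samples. MG53-TG sample 2 met the lowest WT sample, and the others lay below the WT range. The mean was 1.39-fold lower, the smallest fall of the 8 genes. The log2 fold change was -0.47 ± 0.14 (SE, limma adjusted p = 0.0220, exact permutation p = 0.0571). The call was lost after rescaling by the median ratio (-0.29, adjusted p = 0.0838), with the replicate number as a block (-0.47, adjusted p = 0.0552), and without WT sample 1, WT sample 3 or MG53-TG sample 3 (-0.41, -0.44 and -0.37, adjusted p between 0.0523 and 0.0614).

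Prom1 transcripts began at 3 main starts, each at an annotated exon. The middle one, chr5:44098674-44099225, was at 12.5, 1.63, 25.4 and 8.34 FPKM in the WT samples and at 0.387, 0.187, 0.0543 and 0.00130 FPKM in the MG53-TG samples. It was close to nothing in every MG53-TG sample, and its WT values alone brought it into the comparison. Its exact permutation p of 0.0286 (adjusted p = 0.0619) is therefore no support for a difference. For the outer starts no difference between the groups passed, and whether the starts changed by different amounts was not tested. Single samples swung between the middle and the downstream start. WT sample 2 had 1.63 and 20.7 FPKM at these, and WT sample 3 had 25.4 and 2.38 FPKM. The start at chr5:44101648-44101954 averaged 15.6 ± 1.78 FPKM (SD, n = 4) among WT and 17.0 ± 6.47 (SD, n = 4) among MG53-TG samples, with p = 0.857 by exact permutation. The start at chr5:44094395-44094768 was at 14.0 ± 8.20 FPKM (SD, n = 4) and 12.7 ± 6.82 (SD, n = 4), exact permutation p = 0.886. The upstream start overlaps Gm16401, a gene on the opposite strand, and reads of the pair could not be separated if strand was not used in counting.

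**Figure D3:**
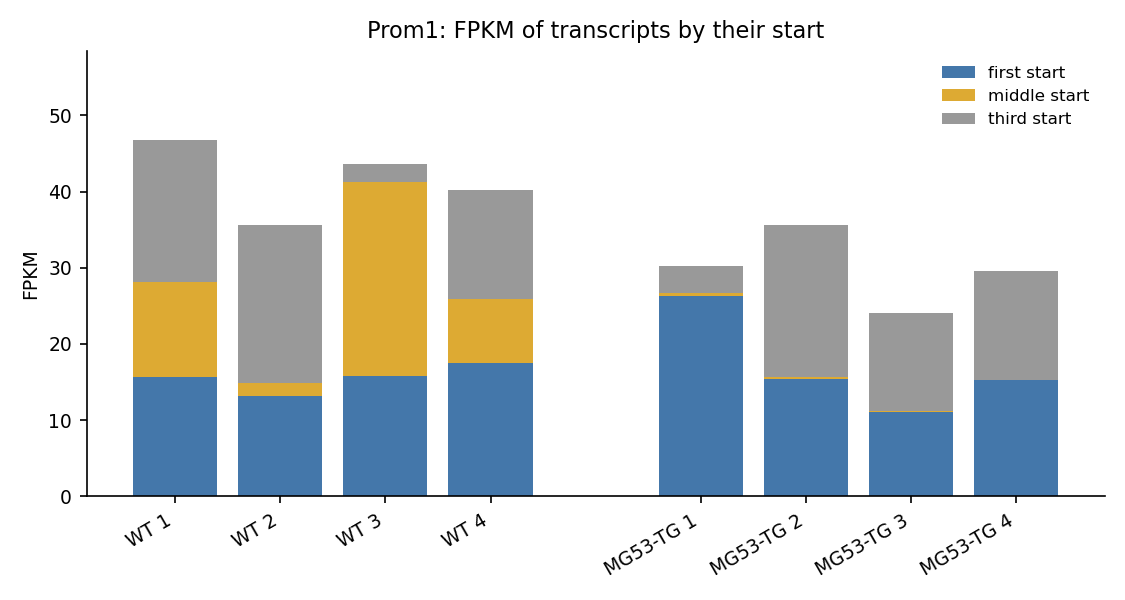
FPKM of Prom1 in each sample, stacked by the start of the transcripts in the order in which they lie along the gene. The middle start (yellow) held 1.63 to 25.4 FPKM in the WT samples and at most 0.387 in the MG53-TG samples.

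The share of the middle start was 27.5 ± 22.5% (SD, n = 4) of Prom1 in the WT and 0.509 ± 0.558% (SD, n = 4) in the MG53-TG (exact permutation p = 0.0286, adjusted p = 0.105). Prom1 also has short coding exons that are left in or out. They are shown because their shares were measured, in the sense of the gene, with all lengths a multiple of the codon and with sequences from the GENCODE M21 transcripts of GRCm38. The 27-base exon is at chr5:44058626-44058652, the 24-base exon at chr5:44001270-44001293 and the 69-base exon at chr5:44000777-44000845.
Prom1 27-base exon: ccagaaatcatagtcttggctctgaag
Prom1 24-base exon: tgttgagactgtgcccatgaaaaa
Prom1 69-base exon: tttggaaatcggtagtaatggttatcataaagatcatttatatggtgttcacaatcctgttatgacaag

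The 27-base exon was in 21.3, 30.7, 25.1 and 25.9% of Prom1 in the WT samples and in 35.1, 29.9, 42.4 and 43.2% in the MG53-TG samples. MG53-TG samples 1, 3 and 4 lay above the WT range and sample 2 within it (exact permutation p = 0.0571, adjusted p = 0.105). The 24-base and 69-base exons were listed together, in 33.6, 37.2, 36.3 and 43.6% of Prom1 in the WT samples and in 86.9, 40.6, 43.8 and 50.4% in the MG53-TG samples. MG53-TG sample 1 stood far above the others, and the groups overlapped (exact permutation p = 0.0571, adjusted p = 0.105). In the WT this share equalled that of the upstream start to within rounding, so they are not separate measurements there. Of the 11 shares of starts and exons compared in 4 of the genes, none passed the adjustment and 1, that of the middle Prom1 start, had an unadjusted exact permutation p under 0.05. That start entered the comparison through its share in the WT samples alone, so its p-values are no support for a difference in share.

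Set out by level, which FPKM allows since it is per transcript length, the genes kept part of their order between the groups. In the WT the order of the mean FPKM was Olfm4 (236), Slc12a2 (169), Smoc2 (90.2), Lgr5 (44.8), Prom1 (41.5), Rgmb (38.6), Ascl2 (7.91) and Tnfrsf19 (4.52). Olfm4 and Slc12a2 overlapped in their samples, as did Lgr5 with Prom1 and Prom1 with Rgmb. In the MG53-TG the order was Slc12a2 (71.0), Smoc2 (53.0), Prom1 (29.9), Olfm4 (28.7), Lgr5 (14.1), Rgmb (14.0), Ascl2 (1.68) and Tnfrsf19 (1.26, from 2 samples). Neighbours in this order overlapped in all cases other than Rgmb and Ascl2. Ranked within each sample, Olfm4 was at 1, 1, 2 and 1 in the WT and at 3, 3, 6 and 6 in the MG53-TG, so the rank of its mean there describes no single sample. Prom1 was at 5, 5, 4 and 6 in the WT and at 4, 4, 3 and 1 in the MG53-TG. Ascl2 was at rank 7 and Tnfrsf19 at rank 8 in every sample with an entry for Tnfrsf19. MG53-TG samples 3 and 4 had no such entry, so Tnfrsf19 had no measured rank there. In these samples Ascl2 was the lowest of the genes with a value.

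Relative to the WT mean, the 4 MG53-TG samples did not lie together. Lgr5 was at 41.6, 45.7, 17.6 and 20.7% of its WT mean in MG53-TG samples 1 to 4, and Olfm4 at 21.3, 24.5, 2.58 and 0.403%. Ascl2 was at 30.7, 39.9, 11.1 and 3.26%, and Slc12a2 at 64.8, 65.3, 23.9 and 13.7%. Samples 3 and 4 lay below samples 1 and 2 for all 7 genes with 4 values, although barely so for Prom1, which was at 72.7, 85.8, 57.9 and 71.1%. Within the MG53-TG the range was 12.2-fold for Ascl2, 4.75-fold for Slc12a2, 4.66-fold for Rgmb, 4.44-fold for Smoc2, 2.59-fold for Lgr5 and 1.48-fold for Prom1. Summed proliferation markers moved with it, their sum being 518, 553, 249 and 172 FPKM across the same samples. Summed Paneth markers were also lower in samples 3 and 4, at 521, 601, 386 and 330 FPKM, although not every Paneth marker was. Summed goblet markers went the other way, at 151, 209, 334 and 379 FPKM. The part of these markers in the spread of the stem cell genes was not tested.

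**Figure D4:**
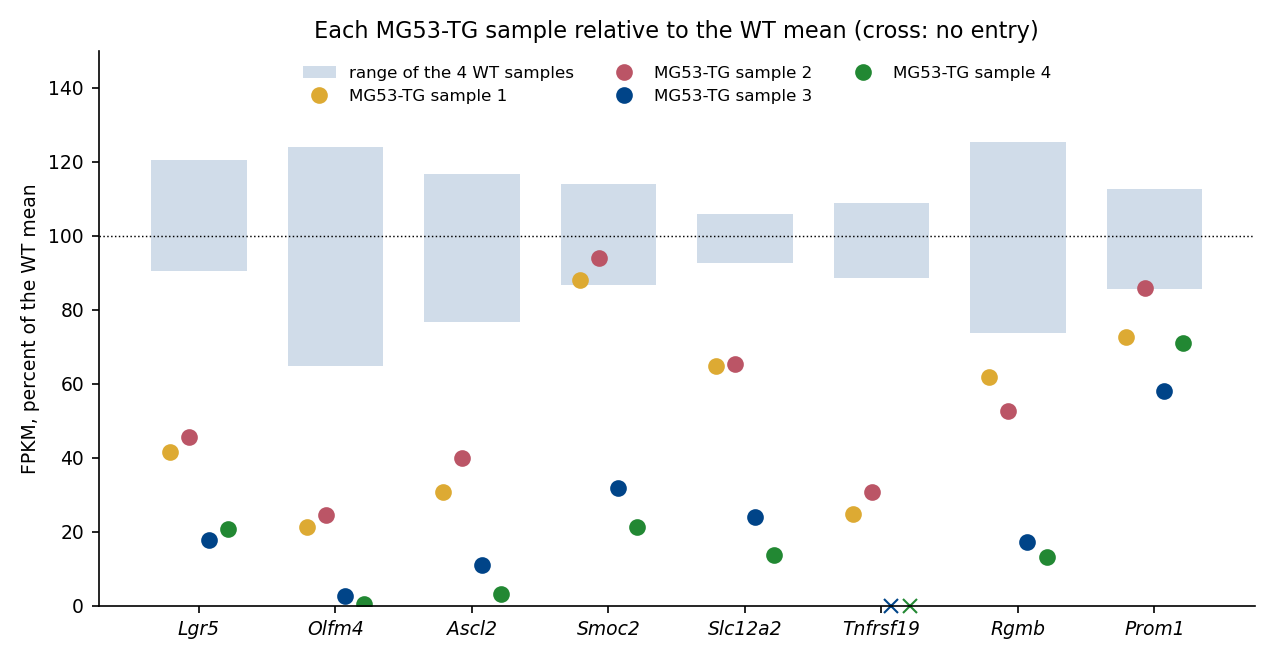
FPKM of each stem cell gene in each MG53-TG sample (coloured points) as a percent of the WT mean, with the range of the WT samples as a band and a cross for no entry. Lgr5 lay at 17.6 to 45.7% and Olfm4 at 0.403 to 24.5%, whereas Smoc2 reached 94.0% and Prom1 85.8%.

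Whether the genes fell by different amounts was compared from the log2 ratio of each pair within a sample, over 21 pairs of the 7 genes with a value in every sample. No pair passed after adjustment by the exact permutation test, although 11 pairs had the smallest unadjusted p of 0.0286, which became 0.0545. All 6 pairs with Olfm4 were among the 11. Olfm4 fell by 3.54 more than Prom1 on the log2 scale, since the log2 ratio of Olfm4 to Prom1 went from 2.44 ± 0.44 (SD, n = 4) in the WT to -1.10 ± 2.25 (SD, n = 4) in the MG53-TG. The ratio of Lgr5 to Prom1 went from 0.10 ± 0.25 to -1.13 ± 0.47 (SD, n = 4). By contrast, the log2 ratio of Lgr5 to Ascl2 differed by 0.17 between the groups (exact permutation p = 0.486) and that of Lgr5 to Rgmb by -0.08 (exact permutation p = 0.800). The former rests on the pseudocount of 1 FPKM, since with 0.1 FPKM the log2 fold changes were -2.60 for Ascl2 and -1.78 for Lgr5. With a pseudocount of 0.1 FPKM 12 pairs passed, and without MG53-TG sample 1 or without MG53-TG sample 4 it was 13. No pair could have an exact permutation p under 0.0286, so these counts rest on how many pairs reached that floor.

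The genes whose profile over the 8 samples lay closest to Lgr5 were sought by the root mean square difference of log2(FPKM + 1), each relative to its WT mean, over 9202 genes averaging 2 FPKM or more. They were Mta1 (0.113), Pkp4 (0.156), Rnf145 (0.157), Tcf7 (0.159) and Mthfd1l (0.164). Tcf7, a transcription factor through which Wnt signals act, averaged 7.14 FPKM in WT and 1.68 in MG53-TG samples. Of the stem cell genes, Ascl2 came nearest to Lgr5 at rank 45, followed by Rgmb at rank 118 and Slc12a2 at rank 196, and Olfm4 was at rank 8606. The measure counts the size of a fall as well as its shape, and Olfm4 fell further than Lgr5. Counted from Olfm4, the same difference put Lgr5 at rank 168. Nearest to Olfm4 were Clca3b (0.827), 2210407C18Rik (1.13), Nap1l1 (1.15), Defa3 (1.27) and Defa17 (1.30). Defa3 and Defa17 encode alpha-defensins of Paneth cells, which belong to a family of near-identical copies, so their values are uncertain.

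Promoters are shown for Olfm4 and Ascl2, the genes with the lowest log2 fold changes of the 8, and for the outer starts of Prom1. The RefSeq table of GRCm38.p6 matched 5 of the genes, Ascl2, Olfm4, Tnfrsf19, Rgmb and Prom1, with 9 starts in all. The 250 bases before each start were searched on both strands for CTTTG, the core recognised by TCF and LEF factors, the E-boxes CAGCTG and CACCTG, the RBPJ core TGGGAA and the TATA letters TATAA. Capitals mark the matches, on either strand. The Ascl2 stretch is chr7:142969265-142969514 (minus strand), that of Olfm4 chr14:80000052-80000301 (plus strand), and those of Prom1 chr5:44101737-44101986 and chr5:44094769-44095018 (minus strand).
Ascl2: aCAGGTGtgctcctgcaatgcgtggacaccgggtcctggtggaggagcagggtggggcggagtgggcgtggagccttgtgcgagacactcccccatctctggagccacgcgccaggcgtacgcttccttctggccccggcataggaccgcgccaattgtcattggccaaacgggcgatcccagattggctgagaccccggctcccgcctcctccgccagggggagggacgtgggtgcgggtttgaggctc
Olfm4: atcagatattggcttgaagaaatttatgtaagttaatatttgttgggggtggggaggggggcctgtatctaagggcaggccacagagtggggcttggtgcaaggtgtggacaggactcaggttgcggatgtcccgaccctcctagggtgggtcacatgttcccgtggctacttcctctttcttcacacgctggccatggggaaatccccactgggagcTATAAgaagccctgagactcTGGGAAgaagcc
Prom1 upstream start: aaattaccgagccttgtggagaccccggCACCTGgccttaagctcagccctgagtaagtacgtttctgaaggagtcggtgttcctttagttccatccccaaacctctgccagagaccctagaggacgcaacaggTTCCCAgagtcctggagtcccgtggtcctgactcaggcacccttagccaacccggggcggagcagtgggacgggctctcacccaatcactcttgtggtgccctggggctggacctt
Prom1 downstream start: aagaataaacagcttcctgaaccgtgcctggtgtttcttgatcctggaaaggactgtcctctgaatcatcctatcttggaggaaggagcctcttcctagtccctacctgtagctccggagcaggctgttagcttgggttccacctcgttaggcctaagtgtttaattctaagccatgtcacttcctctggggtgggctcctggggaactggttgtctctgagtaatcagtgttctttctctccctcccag

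Olfm4 held the TATA letters 32 bases and the RBPJ core 12 bases before its start. Ascl2 held the E-box CACCTG 249 bases before its start, read on the opposite strand. The upstream Prom1 stretch held CACCTG at 222 and the RBPJ core at 116 bases, and the downstream one held none of these motifs. Of the starts not shown, Tnfrsf19 held the TCF core once, the E-box CAGCTG once and the E-box CACCTG 3 times over its 2 starts. Rgmb held the TCF core, the E-box CACCTG and the TATA letters, the latter in a stretch that 2 of its starts share. In all, 7 of the 9 starts held at least 1 of the motifs. Over 32851 promoters, the share with the motif was 48.6% for CTTTG, 13.0% for CAGCTG, 17.2% for CACCTG, 21.6% for TGGGAA and 22.8% for TATAA, so such matches are common.

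Other genes of the crypt base fell as well. Of a list of 21 genes, 20 were tested and Fstl1 lay under the filter. Of these, 15 were lower by limma and none was higher (28.7% and 15.6% of all genes tested), and the list had a median log2 fold change of -1.27. Nrn1 and Msi1 passed the filter through the WT samples alone and so had to differ, and without them 13 of 18 were lower. Nrn1, a neuritin of the stem cell signature, averaged 29.6 ± 7.45 FPKM (SD, n = 4) among WT samples and had no entry in any MG53-TG sample. Phlda1 went from 61.0 to 8.63 FPKM, with a log2 fold change of -2.70 and an adjusted p of 1.39e-05. Cd44, a hyaluronan receptor and Wnt target, went from 23.0 to 3.88 FPKM, with a log2 fold change of -2.62 and an adjusted p of 0.00317. At the other end stood Znrf3 and Rnf43, the ubiquitin ligases that remove Wnt receptors, which did not pass at -0.34 (adjusted p = 0.128) and -0.25 (adjusted p = 0.298).

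**Figure D5:**
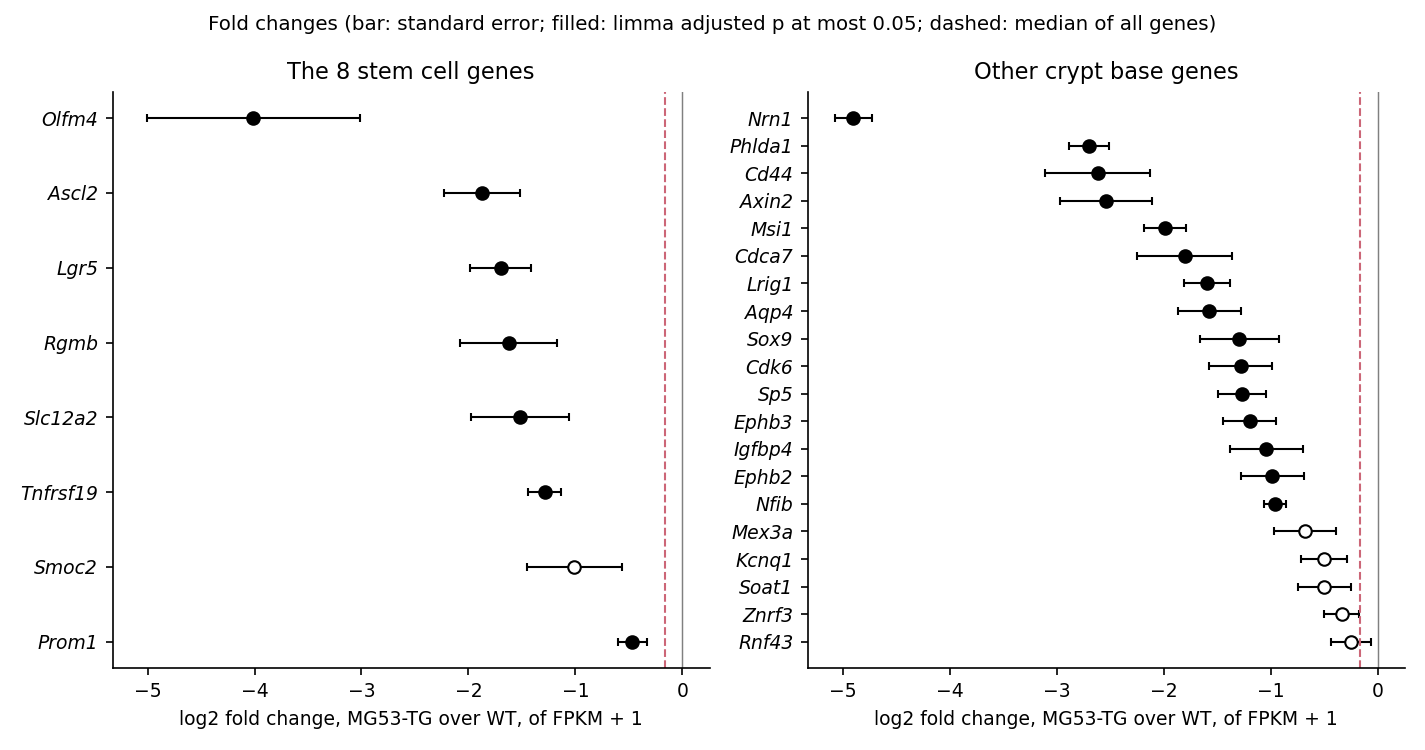
Log2 fold change of FPKM + 1, MG53-TG over WT, with its standard error for the 8 stem cell genes (left) and 20 other genes of the crypt base (right). Filled points passed the limma threshold and the dashed line is the median of all genes tested, -0.17. Olfm4 lies at -4.01 and Prom1 at -0.47.

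Genes linked to reserve or revival stem cells did not move as a block. Of 5, 3 were lower by limma, namely Lrig1 (-1.60), a brake on epidermal growth factor receptors that is also in the crypt base list, Clu (-1.20) and Tert (-0.56), of which Tert was not lower after rescaling by the median ratio. Of all genes tested 28.7% were lower. Bmi1 at 0.19 (adjusted p = 0.369) and Hopx at 0.26 (adjusted p = 0.221) did not pass. Relatives of the 8 genes by family were mostly low or had no entry, and 5 of 16 could be tested. Lgr4, the broadly used R-spondin receptor, was lower at 26.1 against 15.7 FPKM (-0.71, adjusted p = 0.000756), and so was Tnfrsf21 (-0.71, adjusted p = 0.00199). That makes 2 of 5, or 2 of 4 without Olfm1, which passed the filter through the MG53-TG samples alone. For so few genes this is not far from the 28.7% of all genes. Olfm1 did not pass the threshold of the test, nor did Slc12a7 at 0.27. Slc12a7 was higher by the test after rescaling by the median ratio or after quantile normalization.

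Markers of other cells changed alongside, and their counts are to be read beside the 28.7% of all genes tested that were lower and the 15.6% that were higher. Of 10 enterocyte markers all 10 were higher, with a sum of 927 to 1107 FPKM in the WT samples and 11752 to 12767 FPKM in the MG53-TG samples. Of 9 Paneth markers tested 8 were lower, with a sum of 1319 to 1761 against 330 to 601 FPKM. Defa21, Defa22 and Defa26 passed the filter through the WT samples alone, and without them 5 of 6 were lower. Of 7 goblet markers 5 were lower, with a sum of 508 to 600 against 151 to 379 FPKM. Of 12 proliferation markers 10 were lower, with a sum of 681 to 746 against 172 to 553 FPKM. Of 8 enteroendocrine markers 4 were higher, with a sum of 239 to 295 against 348 to 496 FPKM, and tuft markers were too low to test, with 3 of 6 having no entry.

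Of 7 epithelial markers 4 were lower and Vil1 was higher (28.7% and 15.6% of all genes tested), with sums of 2137 to 2465 and 1791 to 2267 FPKM. After rescaling by the median ratio 2 were lower, and 2228 of all genes were lower in place of 3170. Mesenchymal markers summed to 1.80 to 3.24 FPKM in the WT and 1.31 to 5.58 in the MG53-TG, with Pdgfra having no entry and Col1a1 and Dcn under the filter. Col1a2 and Col3a1 had no entry in the WT samples or in MG53-TG sample 1 and passed the filter through the other MG53-TG samples alone, so no count is given for this list. Immune markers summed to 3.77 to 9.24 and 0.609 to 1.47 FPKM, with Cd68, the single one tested, lower, and with Itgam having no entry. The part of these cell types in the values of the stem cell genes was not tested.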

How the data were processed

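RNA sequencing libraries of 4 WT and 4 MG53-TG organoid samples were analysed. Per the labels, Cutadapt 1.9.1, HISAT2 2.0.1, HTSeq 0.6.1 and DESeq2 were used with the mouse build mm10. The authors deposited FPKM values per transcript event (starts, ends, exons). The paper names Heseq 0.6.1 for its FPKM but does not mention transcript events, so the tool that made the event values is not known here. Values reached down to 1e-06 FPKM, so they are estimates, reads could not be recovered and no count-based test or interval was computed. Repeated rows were removed. Events were matched to exon boundaries of GENCODE M21 (GRCm38): 89.7% stayed with the deposited gene, 5.72% moved to another, 4.10% matched none and were kept, and 0.454% tied and were left out. No row of the 8 genes moved. A gene was the sum of its start events, or of its end events if their mean was higher. A gene absent from a sample was missing if the remaining samples of the group had a median of 0.5 FPKM or more, otherwise 0.

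Groups were compared with limma 3.58.1 (eBayes with trend) in R 4.3.3 on log2(FPKM + 1), a scale that understates changes of low genes, over 11043 genes averaging 0.5 FPKM or more. P-values were adjusted by Benjamini-Hochberg, with 0.05 as the threshold. Single genes, shares and pairs were also compared by two-sided exact permutation over 70 relabellings. Shares were compared for genes with at least 1 FPKM in each sample and a mean share of 5 to 95%. Python 3.11.15, numpy 2.4.6, pandas 2.3.3 and scipy 1.17.1 were used for the rest. The fits were tested on simulated data. Named were all 8 genes, Trim72, the 5 genes most like Lgr5 and Olfm4, and, of each other list, genes among its 3 lowest and 2 highest fold changes. Tuft, goblet, enterocyte, enteroendocrine and Paneth lists are given as sums. The genes and lists were chosen with earlier results of these data known. The alternatives were another pseudocount, 2 other filters, 2 other scalings, a replicate block, sample weights, 3 other gene measures, absent genes as 0, genes from the identifier alone, and leaving out each sample. The values of some genes of the other lists are not reported here.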

Additional observations from a re-analysis of the deposited data

Results flagged for a closer look

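Among the FPKM of the stem cell genes, 15 groups of 4 samples were searched for a sample standing apart from the rest, where chance gives about 1 in 20, or 0.75 values. One value was found. Lgr5 was at 54.0 FPKM in WT sample 4, above the 40.5 to 42.3 FPKM of the other WT samples. At its annotated start WT sample 4 had 21.7 FPKM, against 5.73 to 8.87 in the others, whereas its intronic start, at 32.3 FPKM, was the lowest of the 4.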

How the results depend on the processing

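Lgr5, Olfm4 and Ascl2 were called lower in every alternative that gave them a value, including the 8 that leave out a sample. Tnfrsf19 was called lower in every alternative that left out no MG53-TG sample. Leaving out MG53-TG sample 1 or 2 left it a single value in that group, and samples 3 and 4 held none to remove. Those fits therefore do not show how stable its call is. End events gave no fit for Lgr5, which had an end event in WT sample 2 alone, nor for Olfm4, which had none. The number of stem cell genes called lower ran from 4 to 8 as single samples were left out, and that of all genes called from 3914 to 5202. Of the pairs, 0 to 13 were called as single samples were left out and 12 with a pseudocount of 0.1. Smoc2 turned to 0.30 with end events alone. The depth is unknown, so how far it limits Ascl2 and Tnfrsf19, the lowest genes, could not be given.

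The replicate numbers did not pair the samples. Correlations of same-numbered deviations from the group means were 0.0869, -0.0199, 0.0920 and -0.0648. With the replicate number as a block 4451 genes were called, 4250 of them among the 4896 called without it, and of the stem cell genes the call of Prom1 alone was lost (-0.47, adjusted p = 0.0552).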
